A study of Caenorhabditis elegans with 20 samples.

Results

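The data described here are the 4 libraries, of 20 in the series, that were made from Caenorhabditis elegans carrying a deletion of nhr-114 and grown with or without added methionine. The members were chosen by their labels. There were 2 untreated Δnhr-114 libraries and 2 Δnhr-114 libraries with 25 mM methionine, which the study describes as biological replicates. The strain VL1127 carries the deletion allele nhr-114(gk849) together with the integrated transgene wwIs24, which holds a GFP reporter driven by the acdh-1 promoter (Pacdh-1::GFP) and the marker unc-119(+). The reference strain VL749, called wild type here, carries the same wwIs24 reporter and marker, and its 2 untreated and 2 methionine libraries were used for comparison. The food was Escherichia coli OP50 on nematode plates made with soy peptone. Strains were kept with 0.64 nM vitamin B12, L1 larvae were arrested for 18 h, and animals were then grown for 48 h before at least 200 of them were collected. The labels give the stage as L4, whereas the study's method describes picking of late L4 larvae and early young adults. RNA came from whole animals, so fewer cells of a type and less RNA per cell cannot be told apart.

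The methionine/S-adenosylmethionine (Met/SAM) cycle turns methionine into SAM, the methyl donor of the cell, and regenerates methionine from homocysteine with the help of vitamin B12 and folate. NHR-114 is a nuclear hormone receptor that the study places upstream of Met/SAM cycle gene expression. Much SAM is used to methylate phosphoethanolamine to phosphocholine, the head group of phosphatidylcholine, and free choline can enter the same lipid through choline kinase. Fatty acid desaturases and elongases make the acyl chains of membrane and storage lipids, and in C. elegans their transcription is known to depend on SBP-1, the worm counterpart of SREBP.

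Values are treated as counts per 1000000 reads (CPM), although a counted unit may be a read or a unique molecular identifier. They have no correction for gene length, so levels are compared between libraries and not between genes. The 4 Δnhr-114 libraries held 11240800 and 12808010 reads without methionine and 17137665 and 24482380 reads with methionine, for which 3 reads were worth between 0.123 and 0.267 CPM. The wild type libraries held 1389117 to 13823405 reads, and in the shallowest, replicate 2 with methionine, 3 reads were worth 2.16 CPM. These floors cover counting error only. nhr-114 itself was at 0.445 and 0.703 CPM in the untreated Δnhr-114 libraries and at 0.408 and 0.449 CPM with methionine. In wild type it was at 29.01 and 36.6 CPM untreated and at 5.41 and 5.76 CPM with methionine, so all 4 Δnhr-114 libraries lay below every wild type library.

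Untreated replicate 2 stood apart from the other libraries. Of the Δnhr-114 libraries, it was the highest in vitellogenin and in oocyte and eggshell genes and the lowest in molting and cuticle genes, by summed CPM. Of 10948 genes tested, 2643 (24.1%) differed by more than 2-fold between the untreated replicates, against 970 (8.86%) between the methionine replicates. Pearson's r of log2(CPM + 1) across these genes, which are not independent replicates, was 0.826 for the untreated pair and 0.948 for the methionine pair. Results on methionine are therefore given with the values of each untreated library, and the stage difference is described after them.

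The first comparison asked which genes still differed with methionine when the receptor was missing. According to the study, Δnhr-114 animals fed OP50 grow slowly and are sterile, and added methionine rescues these phenotypes. The part of growth and fertility in the differences below was not tested. Lipid synthesis genes were lower with methionine, led by the Δ9 desaturase genes fat-5, fat-6 and fat-7, and so were genes of phosphatidylcholine synthesis and the SAM synthase genes other than sams-1. The 10 genes called higher by DESeq2 included the lysozyme genes ilys-5 and lys-4, the saposin-like gene spp-4 and the pud genes. As a list, Met/SAM cycle genes differed little by their median, although metr-1 and ahcy-1 of this list were lower without overlap. No gene passed the main test (limma on log2(CPM + 1), Benjamini-Hochberg adjusted p under 0.01 and fold change over 1.5), which called 0 of 10948 genes (0.0%) with a lowest adjusted p of 0.0642. At an unadjusted p under 0.05 limma gave 477 genes (4.36%), of which 135 were higher (1.23%) and 342 lower (3.12%). When the mean levels of oocyte and cuticle genes entered the model as covariates for stage, limma called 12 genes (0.11%). These covariates came from the same libraries, and that fit had fewer residual degrees of freedom than the main test. On whole reads recovered from the CPM values, edgeR called 0 genes (421 had an unadjusted p under 0.05, and 0.102 was its lowest adjusted p). DESeq2, the tool the study used, called 43 genes (0.393%), 33 lower (0.301%) and 10 higher (0.0913%).

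Among all genes tested, both methionine libraries were above both untreated libraries for 1255 genes (11.5%) and below them for 2043 genes (18.7%). The gap was wider than the range of either pair of replicates for 319 genes (2.91%) above and 656 genes (5.99%) below. All 43 genes called by DESeq2 had such a wide gap, a property close to what the test itself uses. Of these, 9 lower and 3 higher genes were also called by DESeq2 when each Δnhr-114 library was left out in turn. Such a fit leaves 1 library in an arm and assumes that it varies like the other groups. They were fat-5, fat-7, warf-1, F48C1.9, F11D11.3, F22E5.6, Y41C4A.32, Y37H2A.14 and B0205.13 among the lower genes, and pud-1.1, pud-1.2 and spp-4 among the higher.

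Desaturase genes were among those furthest apart. fat-5 (WBGene00001397; chromosome V, 17725004 to 17726818, WBcel235) encodes a Δ9 desaturase acting on palmitic acid. It was at 289.8 and 495 CPM in the untreated libraries and at 6.01 and 3.64 CPM with methionine. Both untreated libraries were far above both methionine libraries. Wild type was at 48.5 and 14.7 CPM untreated and 17.1 and 75.6 CPM with methionine, between the Δnhr-114 groups. The ratio of the Δnhr-114 group means was 81.4. The log2 difference was -6.28 ± 0.79 (SE, DESeq2, adjusted p = 3.88e-12) or -6.06 ± 0.82 (SE, limma, adjusted p = 0.198).

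fat-7 (WBGene00001399; chromosome V, 7151353 to 7153146), a Δ9 desaturase gene whose product acts on stearic acid, was at 221 and 595 CPM untreated and at 11.3 and 9.15 CPM with methionine. The untreated replicates differed by 2.69-fold, and both were above all other libraries of the experiment. Wild type was at 9.11 and 10.3 CPM untreated and at 13.4 and 59.03 CPM with methionine, so its groups were apart in the other direction. The log2 difference in Δnhr-114 was -5.23 ± 0.72 (SE, DESeq2, adjusted p = 6.91e-10) or -5.03 ± 0.73 (SE, limma, adjusted p = 0.198).

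fat-6 (WBGene00001398; chromosome IV, 11913692 to 11915687), the close paralog of fat-7, was at 2340.0 and 1856 CPM untreated and at 500.2 and 518 CPM with methionine. fat-2 (WBGene00001394; chromosome IV, 13323873 to 13326395), which encodes the Δ12 desaturase that makes linoleic acid, was at 1126 and 757 CPM untreated and at 182 and 198.4 CPM with methionine. For both genes the groups did not overlap and the untreated values exceeded every wild type library. DESeq2 called fat-6 (log2 difference -1.97 ± 0.42 SE, adjusted p = 0.00111) and fat-2 (-2.24 ± 0.38 SE, adjusted p = 3.33e-06), and limma did not (adjusted p = 0.198 and 0.139). Over all alternatives the adjusted p of each of these 4 genes ranged up to 0.9999 (limma, edgeR and DESeq2). Reads of fat-6 and fat-7 can be shared because the genes are alike, so the split between them is uncertain.

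The difference extended over the list of lipid synthesis genes. Of 16 genes, 13 had both methionine libraries below both untreated libraries and none had them above, where 18.7% of all genes tested were below. This list holds fat-2, fat-5, fat-6 and fat-7. Like the other lists, it was chosen with earlier results of these data known, so its count is a description only. All 16 had a negative log2 difference, with a median of -0.83 against -0.07 over all genes tested. Summed over the list, the libraries were at 9778 and 9444 CPM untreated and at 3731 and 4001 CPM with methionine. The untreated replicates lay close together for this list although they were far apart in stage markers. Wild type was at 3832 and 4873 CPM untreated and 5182 and 3310.0 CPM with methionine, with a median log2 difference of 0.03.

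elo-2, a fatty acid elongase gene, was at 896 and 1226 CPM untreated and at 413 and 371 CPM with methionine. pod-2, which encodes acetyl-CoA carboxylase, the first enzyme of fatty acid synthesis, was at 317 and 275 CPM untreated and at 138 and 124 CPM with methionine. The groups did not overlap for either gene, and neither was called. The other separated members were nearer: fat-1, fat-3 and fat-4, which act in polyunsaturated fatty acid synthesis, and elo-1, elo-5 and elo-6 had untreated means 1.49 to 2.08 times the methionine means. sbp-1 itself was low, at 6.76 and 8.51 CPM untreated and 6.71 and 4.37 CPM with methionine, so its groups were only just apart.

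The remaining members overlapped. fasn-1, encoding fatty acid synthase, was at 101 and 50.4 CPM untreated and at 47.5 and 65.3 CPM with methionine. acs-2, encoding an acyl-CoA synthetase linked to fatty acid oxidation, was at 229 and 85.7 CPM untreated and 69.96 and 137 CPM with methionine. mdt-15, encoding a Mediator subunit that cooperates with SBP-1, was at 91.8 and 82.1 CPM untreated and 84.3 and 68.01 CPM with methionine. Untreated replicate 1 was the highest library for all 3.

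Further genes linked to lipids were called lower by DESeq2. hacd-1, encoding a hydroxyacyl-CoA dehydrogenase, was at 247 and 259 CPM untreated and at 68.4 and 64.3 CPM with methionine (adjusted p = 3.17e-04, DESeq2). plin-1, encoding the lipid droplet protein perilipin, was at 459.8 and 509 CPM untreated and at 142.2 and 108 CPM with methionine. acl-12, which encodes a predicted acyltransferase, was at 84.0 and 97.7 CPM untreated and at 23.6 and 12.1 CPM with methionine. The groups were clearly apart in each case. plin-1 and acl-12 were singled out after their values were seen.

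**Figure D1:**
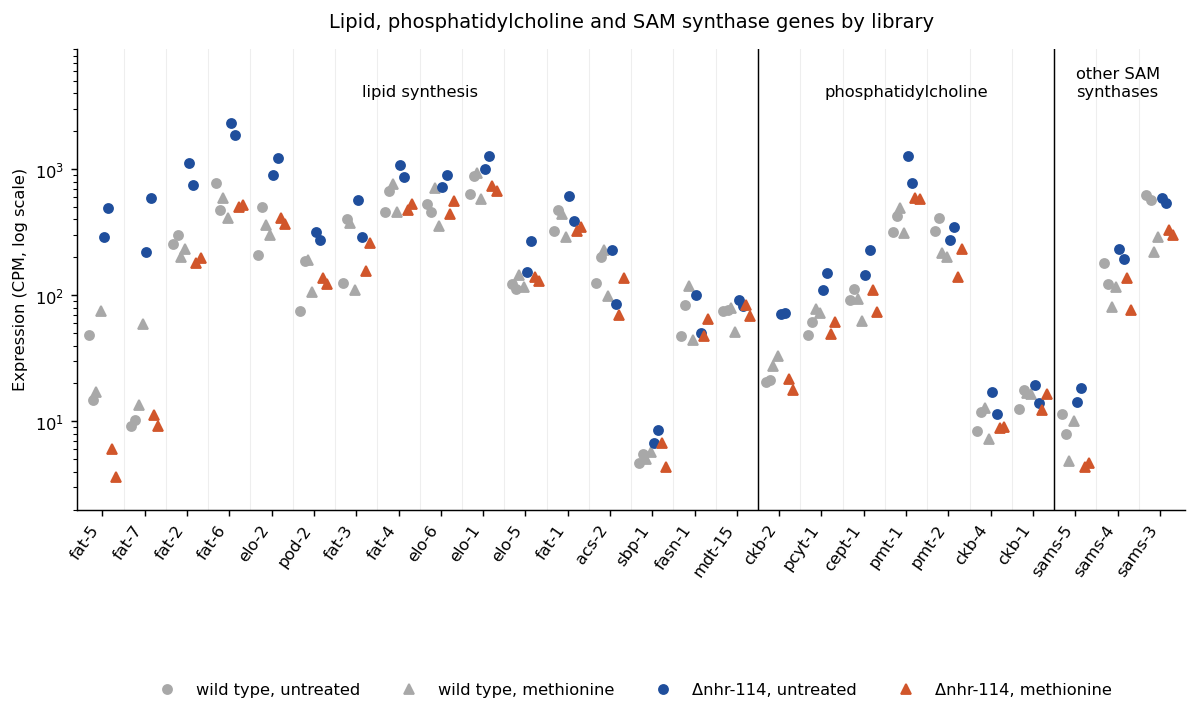
Expression in CPM on a log axis of 16 lipid synthesis, 7 phosphatidylcholine synthesis and 3 SAM synthase genes, with 1 point per library and 2 libraries per group. The untreated Δnhr-114 points (blue circles) lie above the methionine points (orange triangles) for most genes, most widely for fat-5 (289.8 and 495 against 6.01 and 3.64 CPM).

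Genes of phosphatidylcholine synthesis were lower as well. Of 7 genes, 6 had both methionine libraries below both untreated libraries and none above, where 18.7% of all genes tested were below, and the median log2 difference was -0.77. The sum of the list was 1921 and 1603 CPM untreated and 934 and 992 CPM with methionine. ckb-2, encoding a choline kinase, was at 70.5 and 72.5 CPM untreated and at 21.8 and 17.7 CPM with methionine, and DESeq2 called it (adjusted p = 5.59e-06). The groups of ckb-2 were far apart and its replicates close together. In wild type it lay the other way, at 20.6 and 21.2 CPM untreated and 27.5 and 33.1 CPM with methionine. For the difference in response between the genotypes the adjusted p was 2.34e-04 with DESeq2 and 0.529 with limma.

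The other members were lower without passing a test. pcyt-1, encoding the enzyme that follows choline kinase and uses CTP, was at 109 and 150.1 CPM untreated and at 49.8 and 61.3 CPM with methionine. pmt-1, encoding the first phosphoethanolamine methyltransferase, was at 1285 and 779 CPM untreated and at 591 and 581 CPM with methionine. pmt-2, encoding the enzyme of the later methylation steps, was at 274 and 346 CPM untreated and at 139 and 234 CPM with methionine. The groups of these genes did not overlap, while those of ckb-1, another choline kinase gene, did (19.5 and 14.1 CPM untreated, 12.4 and 16.6 CPM with methionine).

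The SAM synthase genes split. sams-1, which belongs to the Met/SAM cycle list, was at 264 and 257 CPM untreated and at 311 and 261 CPM with methionine and overlapped. sams-3 was at 589.5 and 545 CPM untreated and at 329 and 303 CPM with methionine, and sams-4 at 232 and 193 CPM untreated and 137 and 76.1 CPM with methionine. The low gene sams-5 was at 14.3 and 18.5 CPM untreated and 4.32 and 4.70 CPM with methionine. These 3 paralogs were lower without overlap, and none was called. In wild type sams-3 was at 623 and 567 CPM untreated and 222 and 293 CPM with methionine, also lower without overlap. The genes are alike in sequence, so their counts may share reads.

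By their median, the Met/SAM cycle genes differed less with methionine in Δnhr-114 than in wild type. The median log2 difference of the 6 genes was -0.14 in Δnhr-114 and -1.24 in wild type, and 2 of 6 were lower without overlap in Δnhr-114, against 5 of 6 in wild type. Over all genes tested these shares were 18.7% and 10.4%. The 2 genes, metr-1 and ahcy-1, were lower without overlap in wild type as well. In Δnhr-114 the list summed to 3335 and 3497 CPM untreated and to 2297 and 2708 CPM with methionine. metr-1, methionine synthase, was at 155 and 100.4 CPM untreated and at 65.7 and 85.8 CPM with methionine. ahcy-1, encoding the hydrolase of S-adenosylhomocysteine, was at 2662 and 2888 CPM untreated and at 1711 and 2088 CPM with methionine. Their unadjusted p-values (limma) were 0.0797 and 0.0666, and the libraries of mtrr-1, mel-32 and mthf-1 overlapped.

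Genes of cycle influx and efflux lay slightly higher with methionine in Δnhr-114. msra-1, encoding methionine sulfoxide reductase, was at 36.1 and 27.6 CPM untreated and at 37.9 and 45.1 CPM with methionine. In wild type it was at 724 and 516 CPM untreated and at 44.8 and 53.3 CPM with methionine. The methionine libraries of both genotypes were at similar levels, and the untreated libraries were far apart. pmp-5, encoding an ABC transporter, was at 14.2 and 25.9 CPM untreated and at 42.0 and 39.5 CPM with methionine, against 328 and 251 CPM and 41.02 and 52.6 CPM in wild type, the same arrangement. For the difference in response between the genotypes, the adjusted p was 2.12e-10 (msra-1) and 1.55e-07 (pmp-5) with DESeq2, and 0.114 and 0.282 with limma.

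acdh-1, the first gene of the propionate shunt, was at 200.2 and 243 CPM untreated and at 266 and 443 CPM with methionine in Δnhr-114, and at 1703 and 1204 CPM and 464 and 426 CPM in wild type. cbs-1, encoding cystathionine beta-synthase, was at 52.5 and 46.5 CPM untreated and at 59.7 and 70.6 CPM with methionine. Both genes were higher with methionine without overlap in Δnhr-114, and neither was called for methionine in this strain. In wild type cbs-1 was also higher with methionine without overlap, while msra-1, pmp-5 and acdh-1 were lower.

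**Figure D2:**
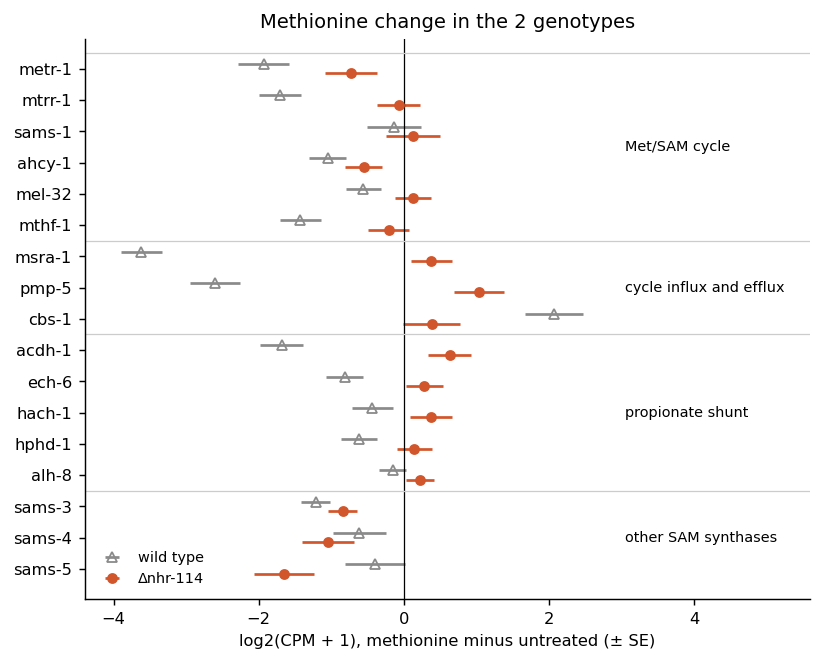
Methionine minus untreated difference of log2(CPM + 1) with its SE from limma (2 libraries per group) for Met/SAM cycle, influx and efflux, propionate shunt and other SAM synthase genes in wild type (grey triangles) and Δnhr-114 (orange circles). For msra-1 the wild type value is -3.62 and the Δnhr-114 value 0.38, while the 3 SAM synthases lie left of 0 in Δnhr-114.

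Outside these pathways the lowest p-value belonged to warf-1 (WBGene00000190; chromosome IV, 7634786 to 7635712), which encodes a small GTPase of the ARF family. It was at 463 and 375 CPM untreated and at 15.52 and 9.11 CPM with methionine. In wild type it was at 11.1 and 11.4 CPM untreated and at 33.4 and 64.8 CPM with methionine, so the genotypes were apart in opposite directions. The log2 difference in Δnhr-114 was -5.01 ± 0.40 (SE, limma, adjusted p = 0.0642) or -5.04 ± 0.46 (SE, DESeq2, adjusted p = 2.15e-23), with adjusted p-values from 2.15e-23 to 0.872 over all alternatives. It was the gene that limma called when no filter on low values was used (adjusted p = 0.00558).

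Several genes known only by sequence name were nearly at 0 with methionine. F48C1.9 was at 43.9 and 49.3 CPM untreated and at 0.525 and 0.572 CPM with methionine. F11D11.3 was at 28.4 and 24.5 CPM untreated and at 0.817 and 0.613 CPM with methionine, and F22E5.6 at 16.7 and 16.16 CPM against 0.467 and 0.286 CPM. Replicates were close together in the untreated group for all 3. Y41C4A.32 was at 849 and 902 CPM untreated and at 66.1 and 18.5 CPM with methionine, and Y37H2A.14 at 217 and 246 CPM against 21.1 and 14.5 CPM. B0205.13 was at 81.8 and 54.7 CPM untreated and at 9.10 and 5.84 CPM with methionine. DESeq2 called all 6, with adjusted p-values from 1.15e-18 (F48C1.9) to 3.97e-07 (Y37H2A.14).

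Other genes called lower by DESeq2 were singled out after their values were seen. cdr-4, a member of the cadmium-responsive gene family, was at 431 and 409 CPM untreated and at 57.9 and 68.9 CPM with methionine. tbb-6, encoding a beta-tubulin, was at 37.5 and 49.2 CPM untreated and at 8.75 and 5.35 CPM with methionine. tts-1, a long non-coding RNA, was at 831 and 386 CPM untreated and at 64.9 and 54.3 CPM with methionine. These 3 had groups far apart. lea-1, related to late embryogenesis abundant proteins, was at 184 and 259 CPM untreated and at 80.0 and 74.5 CPM with methionine. It overlaps acl-2 on the other strand, and the sources do not say if reads were assigned by strand, so its value is uncertain. sir-2.3 (a sirtuin gene), ins-20 (insulin-like peptide) and cyp-13A5 (cytochrome P450) were lower too, and sir-2.3 was at 11.3 and 21.6 CPM untreated and 1.81 and 0.572 CPM with methionine.

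Fewer genes were higher with methionine. ilys-5 (WBGene00017691; chromosome X, 6533490 to 6536840), encoding an invertebrate-type lysozyme, was at 138 and 209 CPM untreated and at 579 and 889 CPM with methionine. Wild type was at 1167 and 884 CPM untreated and 882 and 891 CPM with methionine, so the untreated Δnhr-114 libraries were the low ones. DESeq2 gave a log2 difference of 2.18 ± 0.42 (SE, adjusted p = 9.49e-05) and limma 2.07 ± 0.30 (SE, adjusted p = 0.198). spp-4, encoding a saposin-like protein, was at 7.21 and 8.59 CPM untreated and at 33.6 and 64.3 CPM with methionine, against 41.1 and 43.1 CPM and 41.4 and 59.8 CPM in wild type.

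rips-1, which encodes a predicted methyltransferase, was at 45.6 and 14.4 CPM untreated and at 233 and 258 CPM with methionine. lys-4, a lysozyme gene, was at 12.8 and 5.86 CPM untreated and at 57.8 and 97.8 CPM with methionine. Both were higher without overlap and called by DESeq2 (adjusted p = 4.95e-04 and 0.00302). In wild type lys-4 was apart in the other direction, at 297 and 453 CPM untreated and 32.6 and 114.5 CPM with methionine. For that difference between genotypes the adjusted p was 3.26e-05 with DESeq2 and 0.529 with limma.

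The pud genes take their name from proteins that are more abundant in daf-2 mutants. pud-1.1 (WBGene00017499; chromosome V, 2330429 to 2330930) was at 3.65 and 10.46 CPM untreated and at 191 and 209 CPM with methionine, and pud-1.2 had almost the same values because the copies are nearly identical. The first of a pair of genes both annotated as pud-2.2 was at 2.40 and 5.23 CPM untreated and at 93.9 and 68.3 CPM with methionine. These genes are not independent, since copies may divide each other's reads. In wild type pud-1.1 was at 20.3 and 16.37 CPM untreated and at 38.1 and 204 CPM with methionine, the last value in the shallowest library.

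The intestine markers were mixed. asp-1, encoding an aspartyl protease, was at 1519 and 1215 CPM untreated and at 3058 and 3282 CPM with methionine, and asp-3 at 602 and 502 CPM untreated and 857 and 1112 CPM with methionine (limma adjusted p = 0.598 and 0.61, neither called). Another aspartyl protease gene outside the list, asp-17, had a log2 difference of -2.28, and was singled out after its value was seen. Of 14 intestine markers, 10 had a positive and 4 a negative log2 difference, and 5 were higher without overlap and none lower, where 11.5% of all genes tested were higher. elt-2, the transcription factor gene that defines the intestine, was at 47.0 and 30.4 CPM untreated and at 18.4 and 31 CPM with methionine and overlapped. The summed intestine list was at 6494 and 5429 CPM untreated and 8649 and 10433 CPM with methionine, and its part in the lysozyme and protease values was not tested.

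**Figure D3:**
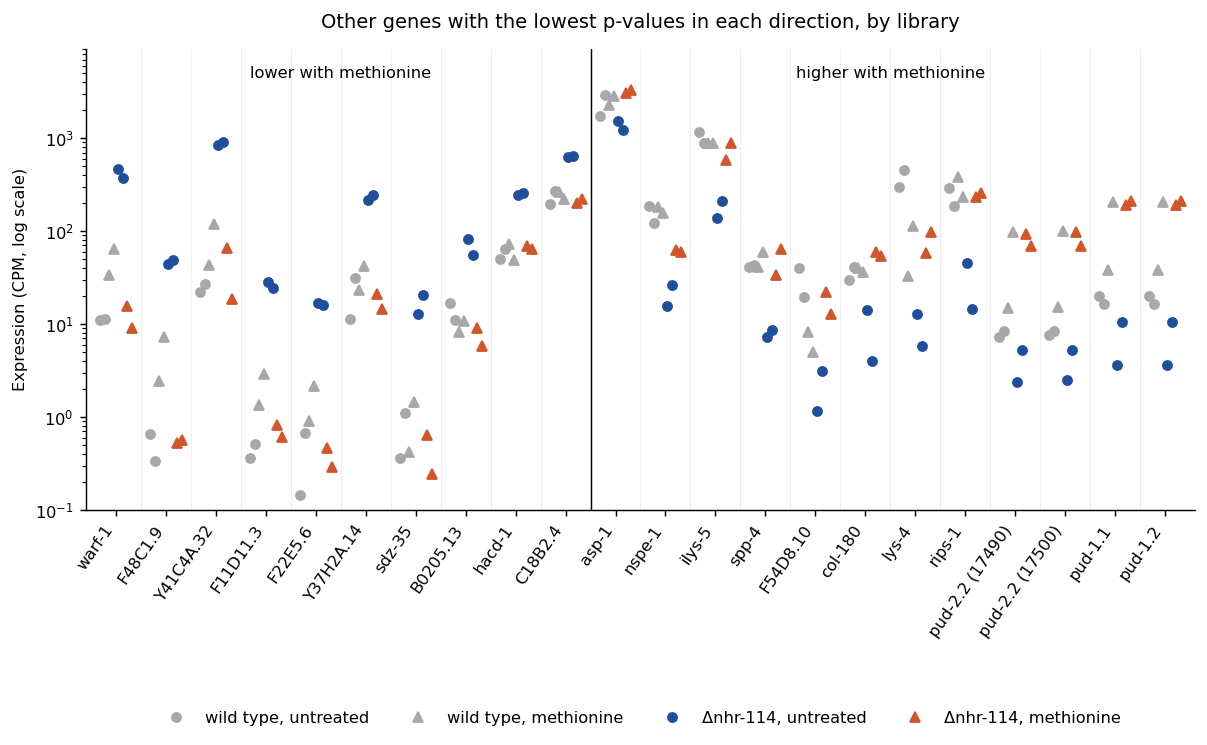
Expression in CPM on a log axis, 1 point per library, of the other genes named by the lowest p-values in each direction, including a pair of genes annotated pud-2.2. The untreated Δnhr-114 points (blue circles) lie at 463 and 375 CPM for warf-1 and at 138 and 209 CPM for ilys-5, outside the methionine points (orange triangles) in both cases.

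Other lists are read against 11.5% of all genes tested that were higher and 18.7% that were lower without overlap. Of 10 transsulfuration and cysteine genes tested, 4 were higher without overlap and none lower. Among them cysl-2 was at 26.1 and 9.37 CPM untreated and 38.6 and 51.02 CPM with methionine, and rhy-1 at 10.4 and 14.3 CPM and 48.3 and 29.6 CPM, both genes known from the hypoxia and hydrogen sulfide response. Of 17 immune effector genes tested, 6 were higher and 2 lower without overlap, with 7 negative log2 differences in all. Of 10 stress response genes tested, 2 were higher and 3 lower, shares near the background. hsp-4, encoding an endoplasmic reticulum chaperone, was at 286 and 304 CPM untreated and at 199 and 139 CPM with methionine. Of 9 neuron genes tested, 6 were lower without overlap, with a median log2 difference of -0.43. lys-4 was the only member of these 4 lists that DESeq2 called.

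The genes called by DESeq2 were set against wild type, whose libraries are separate. Of the 43 genes, 1 was also called by DESeq2 for methionine in wild type. In wild type 9 of the 43 were apart in the same direction and 12 in the opposite direction, where 9.21% of all genes tested were higher and 10.4% lower without overlap. For 13 of the 43 the difference in response between genotypes was itself called by DESeq2, which called 22 such genes in all (0.201%), whereas limma called 0. The Δnhr-114 difference that chose the 43 is part of that comparison, so the 13 are no independent support. With methionine, the Δnhr-114 mean lay within the range of the 4 wild type libraries for 26 of the 33 lower genes and 8 of the 10 higher genes. That share was 78.1% over all genes tested, so it was near the background. The untreated Δnhr-114 mean lay within that range for 0 of the 33 lower and 0 of the 10 higher genes. Over all genes tested this share was 58.5%. The 43 were chosen by a difference that includes the untreated libraries, so this contrast is a description only.

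The second question concerned the untreated replicates. It compares 1 library with 1 library, so the values describe these libraries and no test was made. The 6 vitellogenin genes, which encode yolk proteins made in the adult intestine, summed to 67.97 and 3278 CPM in untreated replicates 1 and 2, a ratio of 48.2. With methionine the sums were 494 and 64.7 CPM. The highest member, vit-2, was at 32.2 and 1334 CPM untreated and at 185 and 21.7 CPM with methionine. Methionine replicate 2 was near untreated replicate 1, and methionine replicate 1 lay between the untreated libraries.

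The 20 oocyte and eggshell genes summed to 1113 and 9494 CPM in the untreated replicates, and all 20 were more than 2-fold higher in replicate 2, as were 1202 of all 10948 genes tested. Both methionine libraries, at 5123 and 1658 CPM in sum, lay between the untreated values for all 20 genes, against 28.3% of all genes tested. A wide untreated range itself favours values in between. Among all genes that differed more than 4-fold between the untreated replicates the share was 65.5%. perm-2, encoding an eggshell permeability barrier protein, was at 28.7 and 807 CPM untreated and at 264 and 50.3 CPM with methionine. cpg-2, a chondroitin proteoglycan gene of the eggshell, was at 136 and 1536 CPM untreated and at 762 and 215 CPM with methionine. From low to high, both genes ran in the order untreated replicate 1, methionine replicate 2, methionine replicate 1, untreated replicate 2. oma-1, encoding an oocyte maturation protein, had the same order, at 50.6 and 301 CPM untreated and 181 and 76.3 CPM with methionine.

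The wider germline list was less uneven. Its sum was 1057 and 2385 CPM in the untreated replicates, and 12 of 21 genes were more than 2-fold higher in replicate 2. gld-1, a translational regulator of the germline, was at 52.2 and 229 CPM untreated and at 192 and 92.2 CPM with methionine. The synaptonemal complex gene syp-1 was at 36.2 and 52.5 CPM untreated and at 39.3 and 41.9 CPM with methionine, a smaller spread. Early embryo genes were near 0 in all 4 libraries, with sums of 0.445 and 1.64 CPM untreated and 0.467 and 0.286 CPM with methionine, and none of 6 passed the filter.

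Molting and cuticle genes ran the other way. Their sum was 13349.9 and 935 CPM in untreated replicates 1 and 2, and 29 of 32 genes were more than 2-fold higher in replicate 1, as were 1441 of all 10948 genes tested. The methionine libraries summed to 7948 and 13365 CPM. dpy-9, a collagen gene, was at 110.4 and 2.50 CPM untreated and at 20.1 and 78.8 CPM with methionine. Untreated replicate 2 was the lowest library and untreated replicate 1 the highest. mlt-8, a molting gene, was at 1071 and 43.4 CPM untreated and at 506 and 962 CPM with methionine. sqt-3, the collagen gene with the highest CPM of the list, was at 5079.6 and 330.2 CPM untreated and at 3047 and 6005 CPM with methionine. Untreated replicate 2 was again the lowest of the 4.

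Adult collagens were uneven among themselves. col-19, which marks the adult cuticle, was at 25.5 and 514 CPM untreated and at 224 and 28.2 CPM with methionine. col-7 was at 56.8 and 59.7 CPM untreated and at 410.1 and 28.8 CPM with methionine, and col-62 was nearly equal to it in every library, so the copies may share reads. Untreated replicate 2 was thus the highest library for col-19, and methionine replicate 1 for col-7.

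The genes with the largest ratio between the untreated replicates included members of the lists (vit-3, dpy-9 and noah-2) and genes of none of them. spex-3 was at 2.58 and 336 CPM in untreated replicates 1 and 2, col-143 at 6.05 and 733 CPM and col-119 at 97.4 and 9792 CPM. dod-23 was at 17.2 and 1437 CPM, ule-5 at 9.52 and 694 CPM and vit-3 at 3.20 and 221 CPM. For all of these replicate 2 was the high library. Higher in replicate 1, by 26.02-fold to 44.2-fold, were dpy-9, F11E6.9, col-176, lpr-6, grl-15, F49C5.11, wrt-10, noah-2, C09F9.2 and lpr-3. lpr-3, a lipocalin gene of the apical extracellular matrix, was at 579 and 22.3 CPM untreated and at 160.0 and 489 CPM with methionine, inside the untreated range.

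**Figure D4:**
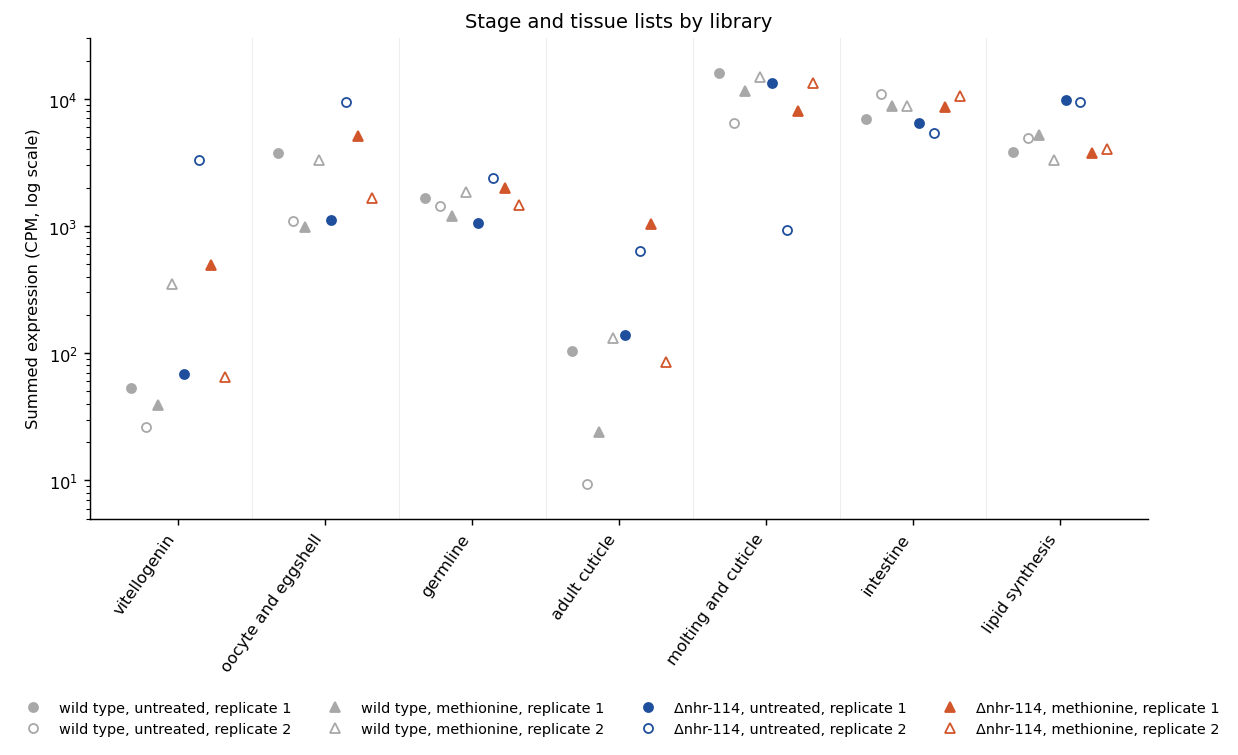
Summed expression in CPM on a log axis of 7 gene lists in the 8 libraries of the experiment, with filled symbols for replicate 1 and open symbols for replicate 2. Untreated Δnhr-114 replicates (blue) lie far apart for vitellogenin (67.97 and 3278 CPM) and for molting and cuticle genes (13349.9 and 935 CPM) but close together for lipid synthesis (9778 and 9444 CPM).

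Over all genes tested, the first principal component of log2(CPM + 1) in the 8 libraries held 41.4% of the variance and placed untreated replicate 1 at 26.1 and untreated replicate 2 at -81.5. Methionine replicate 1 was at -30.4 and methionine replicate 2 at 23.4, inside the span of the untreated pair. The wild type libraries lay between -10.7 and 41.5. Both methionine libraries lay between the untreated replicates for 3101 of 10948 genes (28.3%). Among the 876 genes (8.0%) that differed more than 4-fold between the untreated replicates, a choice that itself favours values in between, this held for 574. For these 876, on a scale from 0 at untreated replicate 1 to 1 at untreated replicate 2, the median position was 0.425 for methionine replicate 1 and 0.0873 for methionine replicate 2.

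Wild type replicates differed too, but not with the same pattern. Oocyte and eggshell sums were 3768 and 1093 CPM in the untreated and 989.6 and 3316 CPM in the methionine wild type libraries. Molting and cuticle sums were 16042 and 6461 CPM and 11572 and 14787 CPM, so in the untreated pair replicate 1 had the higher sum for both lists, unlike in Δnhr-114. Vitellogenin sums were 52.8 and 26.3 CPM untreated and 39.4 and 348 CPM with methionine. The share of genes differing by more than 2-fold between replicates was 17.6% untreated and 21.8% with methionine. The untreated Δnhr-114 pair was the most uneven of the 4 groups by this count.

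Lists were compared for both differences. The median log2 difference of untreated replicate 2 from replicate 1 was -0.18 for lipid synthesis and 0.04 for phosphatidylcholine synthesis, against 3.33 for oocyte and eggshell and -3.93 for molting and cuticle genes. With untreated replicate 2 left out, the median log2 difference with methionine was -1.15 for lipid synthesis and -0.86 for phosphatidylcholine synthesis, and with untreated replicate 1 left out it was -0.87 and -0.93. Both methionine libraries were below untreated replicate 1 for 16 of 16 lipid synthesis genes and below untreated replicate 2 for 13 of 16. Of all 10948 genes tested, 4265 and 5192 were below, in the same order. For fat-5 the log2 difference was -5.67 without untreated replicate 2 and -6.44 without untreated replicate 1.

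The differences of the stage lists with methionine depended on which untreated library was used. The median log2 difference of molting and cuticle genes with methionine was 1.05 with all libraries, 3.14 without untreated replicate 1 and -0.73 without untreated replicate 2. With all libraries 31 of 32 of these genes had a positive log2 difference and all 6 vitellogenin genes a negative one. For oocyte and eggshell genes the median was -0.07, -1.76 and 1.61, and for vitellogenin -1.40, -4.24 and 1.45, in the same order. DESeq2 called 190 genes without untreated replicate 1, of which 162 were higher with methionine, and 13 of these were among the 32 molting and cuticle genes. Without untreated replicate 2 it called 37 genes, 10 higher and 27 lower, with no molting, oocyte, vitellogenin or adult cuticle gene of the lists among them. It called 22 genes without methionine replicate 1 and 14 without methionine replicate 2. fat-5 and fat-7 were called in all of these fits, fat-2 in all but the one without methionine replicate 1, and fat-6 only without untreated replicate 2. The log2 difference of all 43 genes called with all libraries kept its sign in each of these fits. The groups of all 43 did not overlap, so omitting 1 library could hardly reverse it. These DESeq2 fits were added after the data had been seen.

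**Figure D5:**
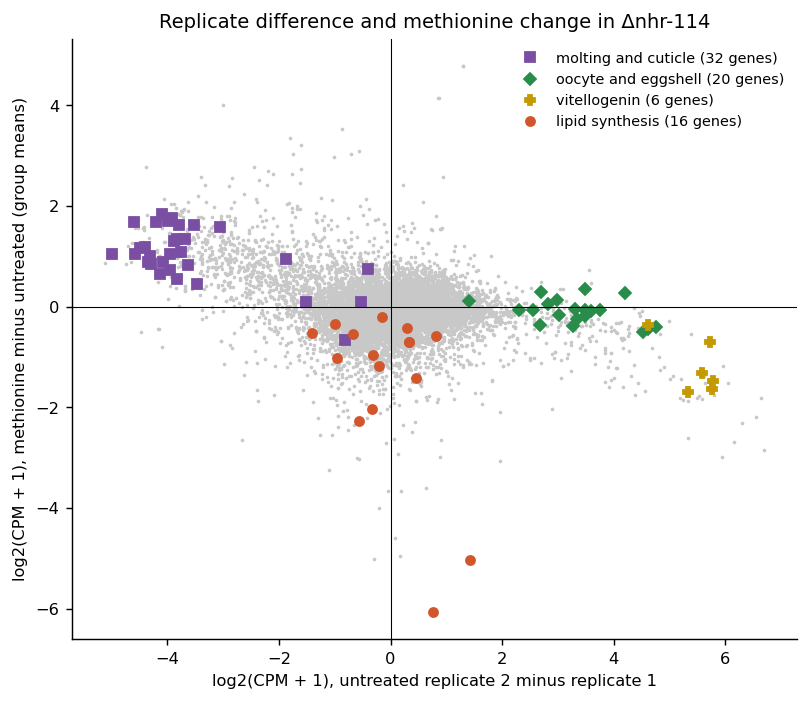
Difference between the untreated Δnhr-114 replicates (x axis, log2(CPM + 1), replicate 2 minus replicate 1) against the methionine minus untreated difference of the group means (y axis) for 10948 genes, with 4 lists coloured. Molting and cuticle genes lie left (median -3.93) and oocyte and vitellogenin genes right, whereas fat-5 (-6.06) and fat-7 (-5.03) lie low near the middle.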

How the data were processed

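Reads were 3′-end CEL-seq2 reads. The authors trimmed them with Trimmomatic 0.32, aligned them with STAR, counted them per gene with ESAT and deposited values per gene that sum to 1000000 in every library and are treated here as CPM. All values were whole multiples of 1 unit per library (tolerance 0.01 units). This unit was treated as 1 read, so reads were recovered by division. The sources do not state whether it is a read or a unique molecular identifier. The columns of all 8 libraries of the methionine table were mapped to samples by name; the RNAi table was not used here. A gene was kept if 2 or more libraries reached 5 CPM (10948 of 39341). limma 3.58.1 (R 4.3.3) fitted log2(CPM + 1), with 1 mean per group over 8 libraries, trended and robust, two-sided, with Benjamini-Hochberg adjustment over all genes; called means adjusted p under 0.01 and fold over 1.5. edgeR 4.0.16 and DESeq2 1.42.0 on the recovered reads, other pseudocounts, filters, scalings, stage covariates and omission of each library were alternatives. The main tests were tried on simulated counts without a stage difference between replicates, so that trial does not bear on the uneven replicates here.

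Named genes were the 10 in each direction with the lowest limma p that did not overlap and reached 20 CPM, up to 10 in each direction called by DESeq2, the 10 in each direction with the largest untreated replicate ratio (higher value at least 100 CPM, lower value floored at 3 reads), and list members. Some were added after their values were seen, as stated. Members and lists were chosen with earlier results of these data known. Positions are from WBcel235 (Ensembl release 115). The study describes the replicates as biological; the labels do not say what separates them, so p-values measure only the spread between 2 libraries per group.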

Additional observations from a re-analysis of the deposited data

Results flagged for a closer look

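The genotypes moved in opposite directions with methionine for 14 named genes, and the treated and untreated libraries did not overlap in either genotype. Some named genes were chosen because they did not overlap in Δnhr-114. Over all genes tested, 11.5% were higher and 18.7% lower without overlap in Δnhr-114, and 9.21% and 10.4% in wild type. The share apart in opposite directions was not counted over all genes, so the 14 have no direct background. Values are the difference of the log2 differences, Δnhr-114 minus wild type, with 2 libraries per group. It was positive for lys-4 (5.53), F54D8.10 (4.53), msra-1 (3.998), pmp-5 (3.65), acdh-1 (2.32) and nhr-68 (1.81), which were higher with methionine in Δnhr-114 and lower in wild type. It was negative for warf-1 (-6.97), F48C1.9 (-6.77), fat-7 (-6.49), Y41C4A.32 (-6.14), F11D11.3 (-5.07), F22E5.6 (-4.50), ckb-2 (-2.32) and pcyt-1 (-1.66), which were lower in Δnhr-114 and higher in wild type. limma called the difference between genotypes for 0 genes, and its adjusted p was 0.0717 for warf-1 and 0.114 for msra-1. DESeq2 gave adjusted p-values of 7.88e-23 for warf-1, 7.78e-09 for fat-7, 3.26e-05 for lys-4 and 2.34e-04 for ckb-2, but 0.0209 for acdh-1, 0.101 for nhr-68 and 0.362 for pcyt-1, which miss the threshold.

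In wild type several of these genes were low. F48C1.9 was at 0.651 and 0.338 CPM untreated and 2.41 and 7.199 CPM with methionine, F11D11.3 at 0.362 and 0.506 CPM and 1.33 and 2.88 CPM, and F22E5.6 at 0.145 and 0.675 CPM and 0.915 and 2.16 CPM. The last value of each rests on the wild type library of 1389117 reads, where 3 reads are worth 2.16 CPM.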

How the results depend on the processing

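limma called 0 genes for methionine in Δnhr-114, for methionine in wild type and for the difference between genotypes with all libraries and, under every omission of 1 library, 0 again. Without a filter on low values it called 1, 2 and 1 genes in that order, and with both stage covariates 12, 7 and 8. DESeq2 on recovered reads called 43, 17 and 22. For these other settings, the cause of the difference was not tested. DESeq2 calls for methionine in Δnhr-114 ranged from 14 (without methionine replicate 2) to 190 (without untreated replicate 1) when 1 Δnhr-114 library was left out, fits added after seeing the data. Other pseudocounts, a minimum of 20 CPM, TMM or median-of-ratios scaling, edgeR, either covariate alone and the compared libraries alone gave 0, the last with no value for the difference between genotypes.

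With the replicate number as a block (replicate block) limma called 0 genes in each comparison. The numbers did not pair the libraries: same-numbered libraries deviated from their group means with correlations from -0.655 to 0.311 across genes. Of 544 values of 26 named genes under alternatives, 513 kept their direction and side of the threshold, 31 passed it and 0 reversed. These 26 genes were chosen for low p-values and no overlap in Δnhr-114, so omitting 1 library could hardly reverse them. Of 462 list medians 53 moved by more than the replicate spread. Medians that changed sign were those of vitellogenin (-4.24 to 1.45), oocyte and eggshell (-1.76 to 1.61), molting and cuticle (-0.73 to 3.14), adult cuticle (-0.99 to 2.79), germline (-0.58 to 0.56), immune effector (-0.16 to 0.50), B12 receptor (-0.32 to 0.04), folate (-0.55 to 0.00) and stress response genes (-0.21 to 0.03). Lipid synthesis stayed between -1.15 and -0.58 and phosphatidylcholine synthesis between -1.02 and -0.69. With 2 libraries per group and 4 residual degrees of freedom in the main fit, fewer with covariates, small differences were not detectable. Large ones were missed by limma too, as for fat-5 (log2 difference -6.06, limma adjusted p = 0.198). The 0 calls therefore do not mean that large differences were absent. The search of promoters for motifs was not run.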

Other observations

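Sperm genes differed between the untreated replicates in the same direction as oocyte genes, by less. The median log2 difference of untreated replicate 2 from replicate 1 was 0.91 for the major sperm protein genes and 3.33 for oocyte and eggshell genes. Of 28 major sperm protein genes tested, which encode the main cytoskeletal protein of nematode sperm and share reads among copies, 9 were more than 2-fold higher in untreated replicate 2. With methionine, both libraries were above untreated replicate 1 for all 28, as they were for 3731 of all 10948 genes tested. Both were above both untreated libraries for 2 of 28, below the 11.5% of all genes tested. fog-1, a regulator of sperm fate, was at 26.1 and 46.8 CPM untreated and at 15.1 and 14.3 CPM with methionine, lower without overlap and not called (limma adjusted p = 0.999).

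mtl-2, a metallothionein gene, was at 53.8 and 22.3 CPM untreated and at 112 and 122 CPM with methionine, while hsp-16.1, a small heat shock gene, was at 33.8 and 46.9 CPM untreated and at 11.3 and 9.15 CPM with methionine. Both were apart without overlap, in opposite directions, and neither was called (limma adjusted p = 0.945 and 0.999).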
